A study of Mus musculus with 15 samples.

Results

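Most mouse genes give more than 1 transcript, and the relative amount of each was compared here between mouse macrophages labelled VLDLR knockout and those labelled wild type or ROBO4 knockout. The genes described had 2 or more listed transcripts and at least 50 summed counts in every library, which 6966 of the 16886 genes in the transcript table met (10472 genes had 2 or more transcripts). The share of a transcript is its count as a percentage of the summed count of all transcripts of the same gene, so a share carries no information on the total level of the gene. The count minimum fell in a dense range: 152 genes with 2 or more transcripts had 50 to under 60 counts in their lowest library (Alms1 and Cgnl1 had 50), and 134 had 40 to under 50 (Zcwpw1 had 49.99). Of the genes past it, 6407 had at least 2 transcripts with 10 or more counts in at least 5 of the 15 libraries and were tested, over 24045 transcripts.

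The RNA came from bone macrophages of mice cultured for 14 days with M-CSF, the growth factor that drives macrophage differentiation, at 20 ng/ml. The 3 genotypes were sequenced with 5 libraries each: wild type (WT), ROBO4 knockout (ROBO4_KO) and VLDLR knockout (VLDLR_KO), and the labels give C57BL6J as the strain of all 15. Libraries were made with a SMARTER mRNA-Seq kit and read as pairs on a BGISEQ-500. The main comparison set the 5 VLDLR_KO libraries against the 10 others, with the form of the sample code as a covariate: in 7 libraries a digit stood before the letter B of the code (WT replicates 3, 4 and 5, ROBO4_KO replicates 1 and 2, VLDLR_KO replicates 1 and 2) and in 8 after it, and nothing in the labels explains the form. The sources used here do not give how each allele was made, the age and sex of the mice, or whether libraries of a group came from separate mice, so p-values measure the spread between these samples, which may be technical.

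Transcripts of 1 gene differ through alternative start sites, alternative exons and alternative ends, and can encode proteins with different domains or none at all. Which exons are joined is set by sequences in the pre-mRNA and by the proteins that read them, such as the SR proteins, the hnRNPs and QKI, an RNA-binding protein encoded by Qk that is active in monocytes and macrophages. VLDLR is a lipoprotein receptor of the LDL receptor family, ROBO4 is a guidance receptor of endothelium, and the title of the series names a VLDLR and QKI pathway that regulates a circular RNA of Slc17a5. Circular RNAs were not analysed here.

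Library totals lay between 18132866 and 19005967 counts, of which 60.2 to 64.6% fell in the genes with 2 or more transcripts described here. VLDLR_KO replicate 2 stood apart from the other 14 libraries: its shares differed from the median of all libraries by 9.40 points on average, against 3.70 to 4.57 points in the others, its FPKM values summed to 676957 against 532163 to 589384, and it had 31535 transcripts with counts against 33226 to 35189. Results that rest on it are given with and without it. The summed level of 9 macrophage markers, 5 of which are among the genes described, was 21898 to 33775 CPM (counts scaled to a common library total) in VLDLR_KO and 13930 to 21283 in the others, none of the markers at 0, and the sums of 7 fibroblast markers were 2.48 to 22.4 and 8.20 to 193. Osteoclast markers summed to 18.97 to 235 CPM in VLDLR_KO and 13.9 to 171 in the others, and endothelial markers to 8.60 to 29.3 and 4.34 to 59.4. Neutrophil markers summed to 0.551 to 3.64 CPM in VLDLR_KO and 0.0538 to 13.2 in the others. Markers of B cells (0.0551 to 0.977 and 0 to 1.05), T cells (0 to 0.109 and 0.161 to 0.593) and erythroid cells (0 to 0.162 and 0 to 0.273) were at or near 0. At 0 throughout was 1 marker each of neutrophils, T cells and erythroid cells. The part of other cells in the share differences was not tested, and in bulk RNA fewer cells of a type and less RNA per cell cannot be told apart. The targeted genes were too low to check the labels. Vldlr had 1 to 38.01 summed counts per library, with 1 to 9 in VLDLR_KO and 2 to 38.01 in the others (log2 -1.05 ± 0.62, adjusted p = 0.234), Robo4 had 0 to 4, and neither is among the genes described.

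Shares changed in 93 of the 6407 tested genes (1.45%, gene-level adjusted p under 0.05 in edgeR's exon-usage test applied to transcripts), and 337 genes (5.26%) had an unadjusted p under 0.05. Within these 93 genes, 103 transcripts of 90 genes passed the same threshold themselves, 0.428% of the transcripts tested: 34 took a higher share in VLDLR_KO and 69 a lower one. Many of the changes were large: 52 of the 103 transcripts moved by at least 10 percentage points, 30 by at least 20 points and 11 by less than 2 points. The median of the largest share difference per gene was 12.1 points in the 93 genes and 4.40 points in all tested genes. For 62 of the 103 transcripts the 5 VLDLR_KO libraries did not overlap the 10 others, against 317 of 24045 transcripts tested (1.32%). The genes and transcripts were called on these same libraries, so larger differences and less overlap than in all tested are largely set by that choice. The plot of all share differences shows these transcripts on both sides of 0.

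**Figure D1:**
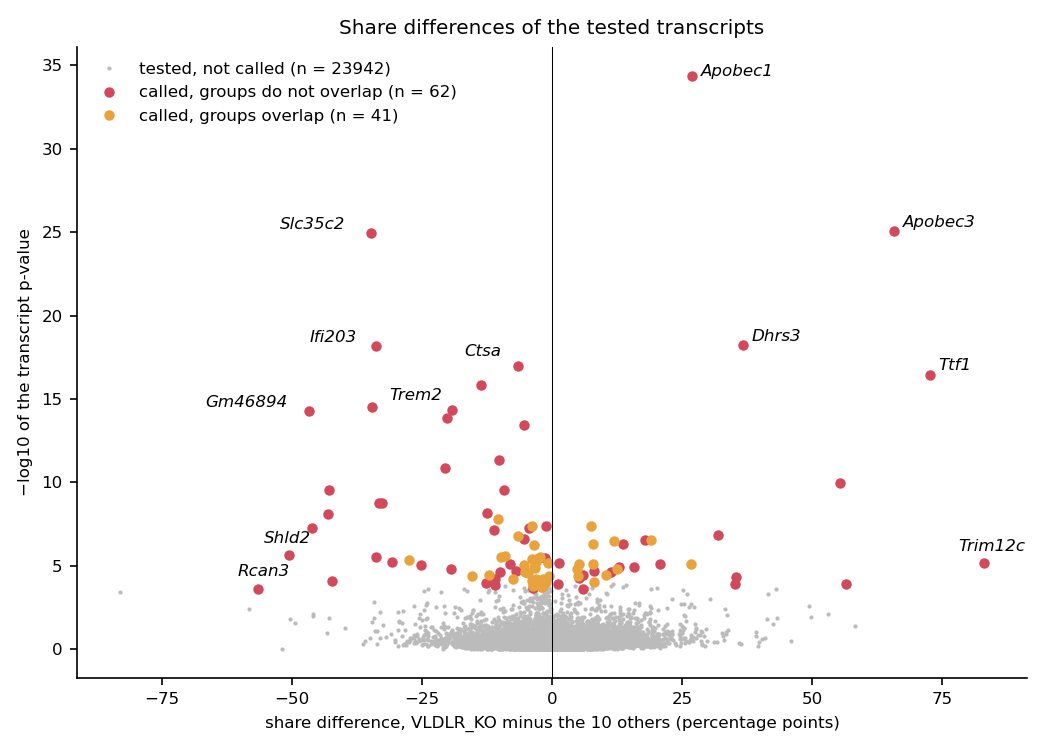
Share difference of each tested transcript (VLDLR_KO minus the 10 others, adjusted for the form of the code, percentage points) against −log10 of its p-value, with called transcripts in colour. The 62 called transcripts whose groups do not overlap lie on both sides of 0, from -56.4 points in Rcan3 to 82.9 points in Trim12c.

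Many of the called transcripts were at or near 0 in VLDLR_KO. Of the 103 transcripts, 36 had 0 counts in all 5 VLDLR_KO libraries, against 116 of the 24045 tested (0.482%), and 46 had a share under 1% in all 5, against 667 (2.77%). In the opposite direction, 4 of the 103 had a share under 1% in all 10 others, against 370 of those tested (1.54%). The filter favours losses in VLDLR_KO by construction. To be tested, a transcript of VLDLR_KO alone had to reach 10 counts in all 5 of its libraries, and a transcript of the 10 others in any 5. With no filter on low transcripts the split was 80 higher and 62 lower, so the balance of losses and gains is not read as a result about VLDLR_KO. The transcript with the highest share was not the same one in the 2 groups for 19 of the 93 genes (20.4%), against 480 of the 6407 tested (7.49%). The calls were made on the same shares, so these contrasts with all tested are no separate support. Among the 103 transcripts, 37 were curated RefSeq models (accessions starting NM), 60 were predicted coding models (XM) and 6 predicted noncoding models (XR), and of those tested 9863 were NM, 12596 XM and 1586 XR. The test used here pools the spread over the transcripts of a gene. A second test, in which each transcript has its own spread and the gene total is an offset, called 159 genes (2.48%), among them 55 of the 93 genes, 58 of the 103 transcripts and 54 of the 62 whose groups do not overlap; its result is given below as the offset adjusted p. The offset test was added because the pooled test made more false calls on simulated counts than its threshold allows. The 93 genes and the adjusted p-values of the pooled test carry this limit. The size of the excess is not given here, nor are the false calls of the offset test.

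Cytidine deaminases were among the clearest cases. Apobec1 (chr6:122577792-122603027, the enzyme that edits C to U in the mRNA of apolipoprotein B) had 31.6, 30.4, 33.7, 30.5 and 32.4% of its counts in transcript NM_031159.3 in the 5 VLDLR_KO libraries, in the order of their replicate numbers. The share in WT was 3.93, 4.71, 5.42, 4.67 and 5.32% and in ROBO4_KO 4.69, 5.46, 4.48, 4.08 and 4.77%. Every VLDLR_KO library was above every other library, and the difference was 26.97 ± 0.506 points (adjusted p = 9.88e-31, offset adjusted p = 5.88e-12). Transcript NM_001134391.1 of the same gene held 58.9, 58.8, 56.2, 61.3 and 59.1% in VLDLR_KO and 80.7 to 84.8% (median 82.9%) in the others, also without overlap (-24.1 ± 0.735 points, offset adjusted p = 5.86e-10, adjusted p = 0.827 in the pooled test). The summed count of Apobec1 was higher too (log2 1.59 ± 0.06, adjusted p = 4.69e-11).

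Apobec3 (chr15:79889532-79918261), a deaminase that restricts retroviruses, changed its leading transcript. NM_001160415.1 took 68.03, 49.4, 74.1, 62.9 and 77.1% of the counts in VLDLR_KO, was at 0 in 9 of the 10 others and at 1.09% in WT replicate 3. Counts of 0 allowed a share of up to 0.521% there, taking 3 counts as the limit. The difference was 65.8 ± 3.26 points (adjusted p = 8.8e-22, offset adjusted p = 2.85e-05). Transcript NM_030255.3 went from 46.7 to 71.9% (median 60.02%) in the others to 18.4, 27.7, 14.3, 22.8 and 14.5% in VLDLR_KO. The fall was 42.2 ± 3.72 points (adjusted p = 0.0221, offset adjusted p = 8.46e-05), and this adjusted p was 0.0729, 0.106, 0.0508 and 0.103 without VLDLR_KO replicate 1, 3, 4 and 5. The total level of Apobec3 did not pass the test (log2 0.03 ± 0.07, adjusted p = 0.76).

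Trim12c (chr7:104338754-104353358), a TRIM family gene that lies beside its near copy Trim12a, had 2 transcripts past the filter. NM_175677.4 took 87.6, 82.4, 94.4, 83.8 and 88.1% in VLDLR_KO, and in WT 6.79, 7.30, 0, 10.9 and 0% and in ROBO4_KO 0, 0, 8.63, 0 and 5.92%. The groups did not overlap, and the difference was 82.9 ± 2.31 points (adjusted p = 0.00335, offset adjusted p = 0.0556), and the other transcript NM_001146007.1 mirrored it (adjusted p = 0.0644, offset adjusted p = 2.58e-06). Reads of Trim12c and Trim12a may be split between the copies, so this share is uncertain.

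The p200 family of interferon-inducible DNA sensors sits in 1 cluster on chromosome 1, and Ifi203, Ifi204, Ifi207 and Mndal were among the 93 genes, whereas Aim2 and Ifi211 did not pass the test (adjusted p = 0.0992 and 1). Transcript XM_011238759.1 of Ifi203 (chr1:173920400-173942848) held 20.7 to 59.4% (median 32.8%) in the 10 others and 0 in all 5 VLDLR_KO libraries, which allows up to 0.626% (-33.9 ± 5.05 points, adjusted p = 3.18e-15, offset adjusted p = 3.27e-06). Transcript XM_006496675.3 of Ifi204 held 10.2 to 15.8% (median 14.1%) in the others and again 0 in every VLDLR_KO library (-13.6 ± 0.857 points, adjusted p = 4.52e-13, offset adjusted p = 6.82e-08). Mndal transcript XM_011238732.1 went from 14.9 to 39.7% (median 34.6%) to 12.4, 2.09, 8.96, 1.89 and 9.66% (-25.1 ± 3.995 points, adjusted p = 0.00379, offset adjusted p = 0.0291). For these genes the total level was lower as well, with log2 differences of -0.52 in Ifi203, -1.75 in Ifi204, and -0.59 in Mndal (adjusted p = 0.00242, 6.06e-08 and 0.00151). The genes are similar in sequence and their listed spans overlap, so counts split between them are uncertain. Without VLDLR_KO replicate 2 the gene-level call of Ifi207 was lost, and those of Ifi203, Ifi204 and Mndal were kept.

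**Figure D2:**
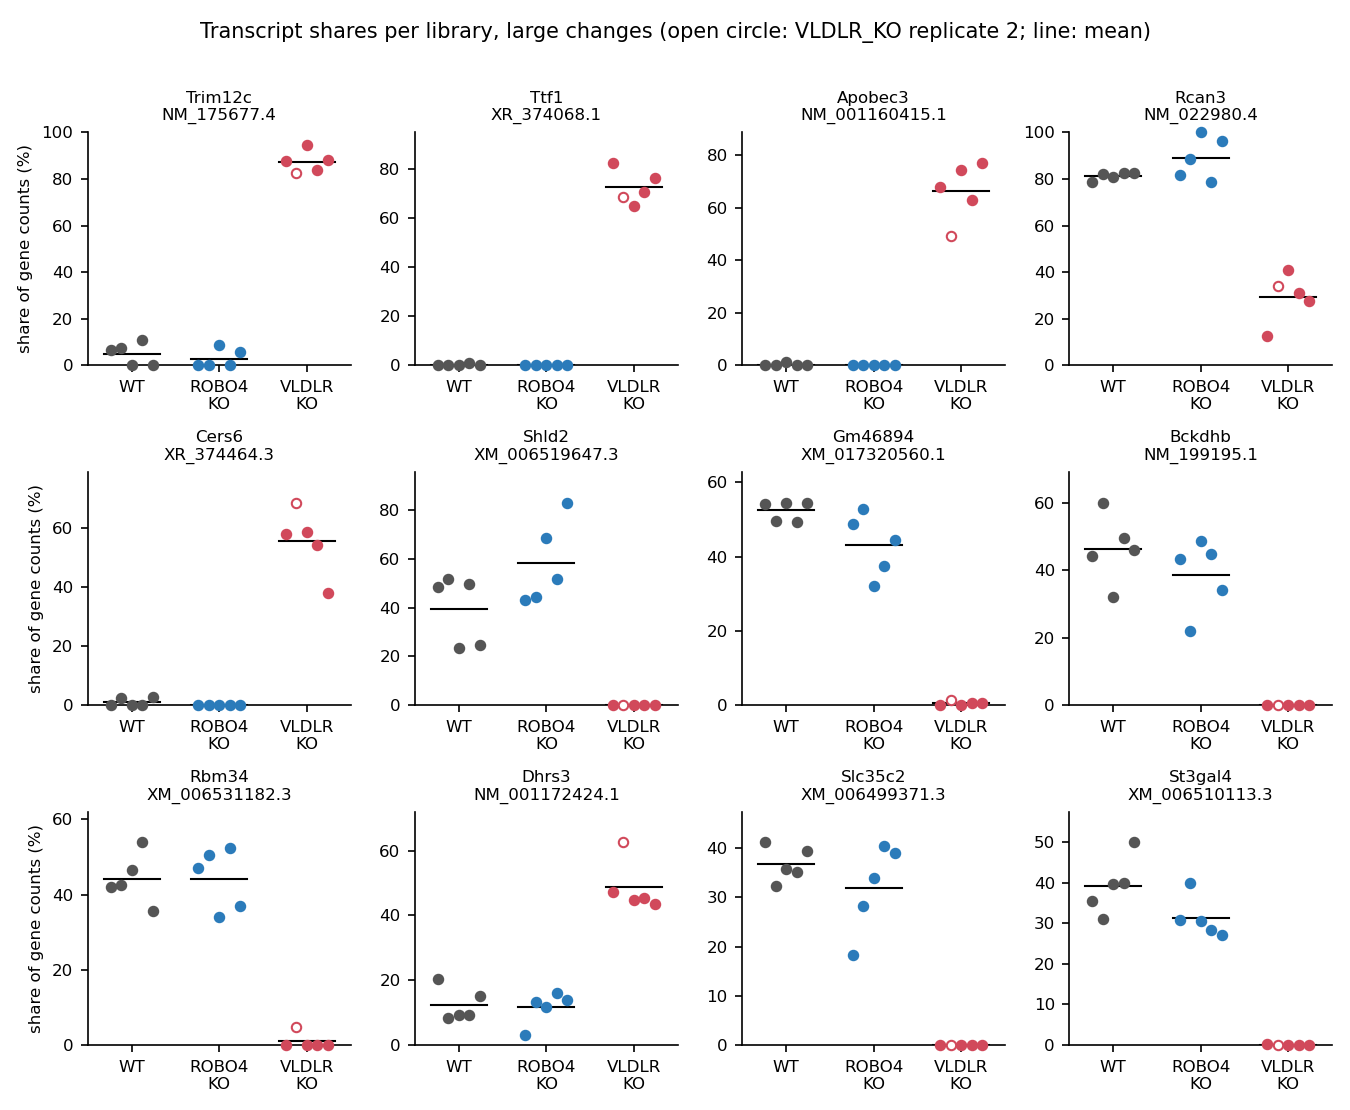
Share of 1 transcript in the counts of its gene (percent, axis from 0) in each of the 15 libraries for 12 genes with large changes, points by genotype, the line at the mean of 5 libraries and VLDLR_KO replicate 2 as an open circle. The genes were chosen among those whose groups do not overlap, so the VLDLR_KO points lie apart in all 12 panels by that choice. The VLDLR_KO points are at or near 0 in Shld2, Gm46894, Bckdhb, Rbm34, Slc35c2 and St3gal4.

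Of the macrophage receptors and innate signalling genes, 40 of the 54 listed were tested and 3 were called, Trem2, Msr1 and Sirpa, against 1.45% of all tested genes. Without VLDLR_KO replicate 2 the call of Sirpa was lost. The median of the largest share difference was 3.60 points in the list and 4.40 points in all tested genes. Trem2 (chr17:48346401-48352276), a lipid-sensing receptor of macrophages and microglia, had 2 transcripts past the filter. NM_001272078.1 held 22.4, 20.8, 21.03, 21.6 and 20.1% in WT, 20.8, 20.1, 21.4, 20.3 and 21.6% in ROBO4_KO and 1.73, 1.81, 2.26, 1.64 and 1.86% in VLDLR_KO. Values were tight within each genotype, and the difference of -19.2 ± 0.340 points was many times the SD of 0.240 points in VLDLR_KO and 0.749 points in the others (adjusted p = 1.16e-11, offset adjusted p = 1.44e-12). Gene totals of 9785 to 27141 counts gave 95% Wilson intervals of at most 0.616 points to either side, which cover counting error only. The total level of Trem2 did not pass the test (log2 -0.26 ± 0.17, adjusted p = 0.265).

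Msr1 (chr8:39543232-39642750), the class A scavenger receptor that takes up modified lipoproteins, had 26.2, 20.7, 25.1, 26.4 and 24.01% of its counts in NM_001113326.1 in VLDLR_KO and 6.84 to 14.03% (median 11.6%) in the others (13.6 ± 1.17 points, adjusted p = 0.000313, offset adjusted p = 0.000254). Its transcript XM_006509312.2 went the other way, from 15.05 to 23.4% (median 18.3%) to 9.70, 5.28, 4.53, 6.86 and 4.72% (-12.5 ± 1.30 points, adjusted p = 7.6e-06). Neither transcript overlapped between the groups, and the total level was higher in VLDLR_KO (log2 0.71 ± 0.16, adjusted p = 0.00566). Sirpa is the receptor for CD47 that limits phagocytosis, and among fits that left out 1 library it was called only while VLDLR_KO replicate 2 was in the fit. Its transcript NM_001291022.1 held 0.187, 36.6, 0.203, 0.179 and 0.0879% in VLDLR_KO and 0.0659 to 0.285% (median 0.134%) in the others (adjusted p = 0.000313, offset adjusted p = 0.202). Without VLDLR_KO replicate 2 the difference was 0.0473 points and the adjusted p was 1.

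Among signalling genes, Pik3cd (chr4:149649168-149702566), the catalytic delta subunit of phosphoinositide 3-kinase in leukocytes, had 1.97, 3.45, 3.96, 0.892 and 6.73% in NM_001029837.2 in VLDLR_KO against 13.5 to 29.1% (median 22.3%) in the others (-19.4 ± 1.88 points, adjusted p = 0.00604, offset adjusted p = 0.000877). Plxnb2, a plexin receptor for class 4 semaphorins, lost NM_138749.3: 3.56 to 17.1% (median 8.71%) in the others and 0 in all 5 VLDLR_KO libraries, which allows at most 0.0382% at its 7853 to 10956 counts per library (-10.1 ± 1.81 points, adjusted p = 8.28e-09, offset adjusted p = 1.68e-05). Stk3 (chr15:34874554-35155895), the Hippo pathway kinase MST2, gained XM_006520121.3, which held 32.6, 28.5, 27.8, 45.9 and 27.1% in VLDLR_KO. It was at 0 in 8 of the others, at 4.54% in ROBO4_KO replicate 1 and at 0.00681% in WT replicate 4 (31.9 ± 2.58 points, adjusted p = 0.000114, offset adjusted p = 0.0219). The total level of Stk3 was lower in VLDLR_KO (log2 -0.45 ± 0.13, adjusted p = 0.0189).

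Rcan3 (chr4:135412308-135433870), a regulator of the phosphatase calcineurin, had 2 transcripts past the filter that exchanged places. NM_022980.4 held 78.5, 82.1, 80.9, 82.4 and 82.4% in WT, 81.8, 88.7, 100, 78.5 and 96.2% in ROBO4_KO and 12.7, 34.1, 40.9, 31.1 and 27.8% in VLDLR_KO, and XM_017320317.1 held the remainder. All 5 VLDLR_KO libraries were below all others (-56.4 ± 4.53 points, adjusted p = 0.0475, offset adjusted p = 0.000507). This adjusted p is close to the threshold and passed it in 3 of 15 fits that left out 1 library, reaching 0.184 without VLDLR_KO replicate 1 while the direction held in all of them. The gene also had a lower total level in VLDLR_KO (log2 -0.88 ± 0.10, adjusted p = 1.4e-05).

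**Figure D3:**
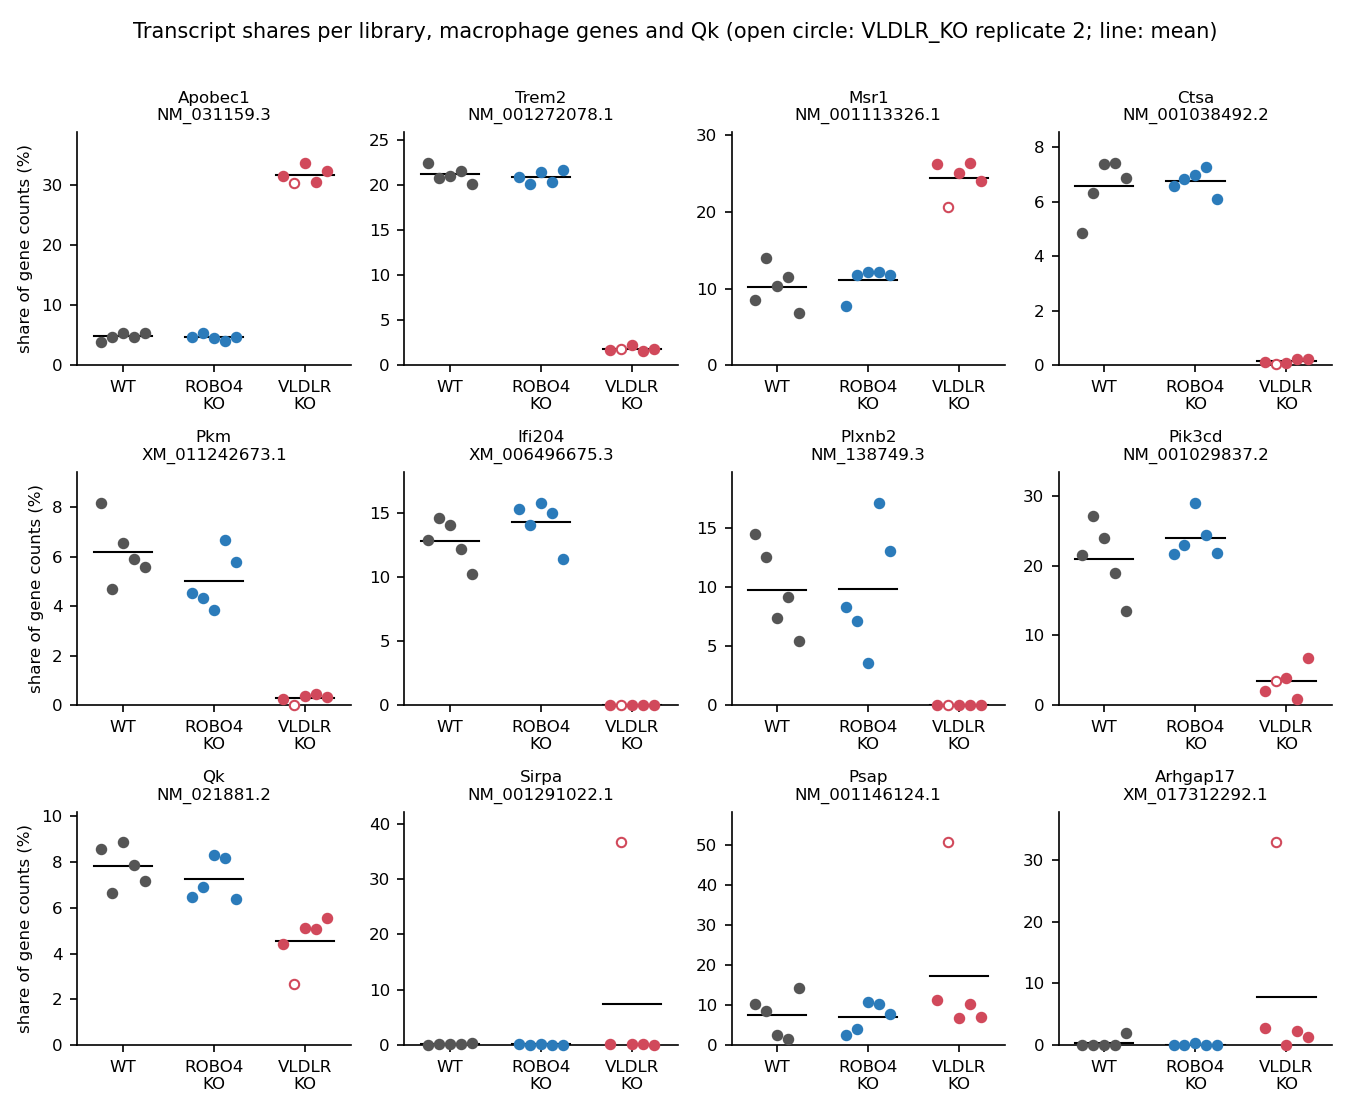
Share of 1 transcript in the counts of its gene (percent, axis from 0) in each of the 15 libraries, points by genotype, the line at the mean of 5 libraries and VLDLR_KO replicate 2 as an open circle. The VLDLR_KO points lie apart in the upper 8 genes and in Qk, whereas in Sirpa, Psap and Arhgap17 the open circle alone is high, at 36.6, 50.6 and 32.8%.

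Of the list on lysosomes and lipid handling, 32 of 48 genes were tested and 1, Psap, was called, against 1.45% of all tested genes. The median largest difference was 2.57 points in the list and 4.40 points in all tested genes. Psap encodes the precursor of the saposins, which help degrade sphingolipids, and its transcript NM_001146124.1 held 11.1, 50.6, 6.70, 10.2 and 6.99% in VLDLR_KO and 1.39 to 14.3% (median 8.12%) in the others (10.4 ± 6.18 points, adjusted p = 0.0123, offset adjusted p = 0.663). Its groups overlap, and without VLDLR_KO replicate 2 the difference was 0.880 points (adjusted p = 1). The call was also lost without WT replicate 3 or 4 or ROBO4_KO replicate 1 or 2 (adjusted p = 0.118, 0.107, 0.126 and 0.107).

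Ctsa (chr2:164832872-164841032), the lysosomal carboxypeptidase that protects sialidase and beta-galactosidase, was outside that list and gave a small but separate change. Its transcript NM_001038492.2 held 4.86, 6.31, 7.39, 7.42 and 6.87% in WT, 6.55, 6.81, 6.97, 7.25 and 6.11% in ROBO4_KO and 0.133, 0.0469, 0.0939, 0.245 and 0.245% in VLDLR_KO. No library of VLDLR_KO reached 1% and none of the others was below 4.86% (-6.46 ± 0.341 points, adjusted p = 4.39e-14, offset adjusted p = 8.84e-07), with gene totals of 21736 to 42918 counts. The total level of Ctsa did not pass the test (log2 0.22 ± 0.11, adjusted p = 0.158).

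Several genes named here act on glycans or their substrates. St3gal4 (chr9:35046576-35116810), a sialyltransferase, had 27.1 to 49.9% (median 33.3%) of its counts in XM_006510113.3 in the others, 0.185% in VLDLR_KO replicate 1 and 0 in the other 4 VLDLR_KO libraries (-34.6 ± 2.74 points, adjusted p = 8.7e-12, offset adjusted p = 3.03e-08). Slc35c2, a sugar transporter family member of the Golgi, lost XM_006499371.3, which held 41.2, 32.3, 35.8, 35.1 and 39.4% in WT, 18.2, 28.2, 33.9, 40.4 and 39.01% in ROBO4_KO and 0 in all 5 VLDLR_KO libraries, with a limit of 0.430% (-34.8 ± 3.07 points, adjusted p = 8.8e-22, offset adjusted p = 2.88e-07). In its place the share of NM_144893.2 was 65.8, 64.4, 65.5, 57.5 and 63.2% in VLDLR_KO and 25.2 to 49.3% (median 38.1%) in the others (adjusted p = 1 in the pooled test, offset adjusted p = 0.00206). Slc35b4, a transporter of nucleotide sugars, had 1.66, 7.48, 0.653, 1.55 and 1.43% in XM_011241421.2 in VLDLR_KO and 16.7 to 30.6% (median 23.9%) in the others (-20.6 ± 1.70 points, adjusted p = 2.26e-08, offset adjusted p = 0.000576). Fbxo6, an F-box protein that binds glycoproteins for degradation, lost NM_001163707.1 from 8.06 to 35.7% (median 19.8%) to 0 in all 5 VLDLR_KO libraries, with a limit of 0.461% (-20.1 ± 3.48 points, adjusted p = 2.96e-11, offset adjusted p = 1.26e-05).

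Pigt (chr2:164497510-164508301), a subunit of the transamidase that attaches GPI anchors, had 11.8, 12.1, 12.3, 8.003 and 8.90% in NM_133779.2 in VLDLR_KO and 34.4 to 61.4% (median 42.1%) in the others. The difference was -33.3 ± 3.47 points (adjusted p = 2.05e-06, offset adjusted p = 3.86e-06), and the total level was higher (log2 0.62 ± 0.10, adjusted p = 0.000331). Sec23ip, a partner of the COPII vesicle coat, had 52.9, 79.6, 53.2, 48.04 and 49.2% in NM_001029982.2 in VLDLR_KO against 15.1 to 26.8% (median 22.2%) (35.3 ± 4.13 points, adjusted p = 0.0328, offset adjusted p = 8.76e-05). Its adjusted p rose above 0.05 in 6 of 15 fits that left out 1 library, up to 0.0759 without VLDLR_KO replicate 3, and was 0.0475 without VLDLR_KO replicate 2.

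Several of the 93 genes act in metabolism. Cers6 (chr2:68861136-69114284), a ceramide synthase, had 57.9, 68.5, 58.6, 54.1 and 37.9% in the noncoding model XR_374464.3 in VLDLR_KO and 0 to 2.61% (median 0%) in the others (55.3 ± 3.33 points, adjusted p = 1.72e-07, offset adjusted p = 0.00824). The coding model XM_006499452.3 held 30.3, 28.05, 24.6, 29.9 and 42.02% against 85.04 to 92.8% (median 88.96%) (-58.2 ± 2.43 points, adjusted p = 0.35, offset adjusted p = 8.67e-07). The total level did not pass the test (log2 0.04 ± 0.13, adjusted p = 0.836). Dhrs3 (chr4:144892608-144927645), an enzyme that reduces retinal, had 47.1, 62.5, 44.9, 45.3 and 43.4% in NM_001172424.1 in VLDLR_KO and 3.01 to 20.4% (median 12.5%) in the others (36.7 ± 3.40 points, adjusted p = 3.18e-15, offset adjusted p = 0.00206), with NM_011303.6 lower (-33.9 ± 2.45 points, adjusted p = 0.00166). The listed span of Dhrs3 overlaps that of Vps13d on the same strand, so counts of the 2 genes are uncertain.

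Bckdhb, a subunit of the complex that degrades branched-chain amino acids, lost NM_199195.1: 22.1 to 60.1% (median 44.5%) in the others and 0 in all 5 VLDLR_KO libraries (-43.1 ± 4.80 points, adjusted p = 8.23e-06, offset adjusted p = 5.87e-06). Gene totals here were only 94 to 271 counts, so 0 counts allow up to 1.80%, and the total level was higher in VLDLR_KO (log2 0.93 ± 0.14, adjusted p = 0.000211). Pkm, pyruvate kinase of glycolysis, had 0.265, 0, 0.372, 0.471 and 0.336% in XM_011242673.1 in VLDLR_KO and 3.84 to 8.18% (median 5.68%) in the others (-5.35 ± 0.617 points, adjusted p = 6.74e-11, offset adjusted p = 0.000435). Txnrd1, cytosolic thioredoxin reductase, had 38.1, 42.9, 37.2, 31.8 and 31.6% in NM_015762.2 against 7.63 to 20.1% (median 17.7%) (20.7 ± 2.45 points, adjusted p = 0.00335, offset adjusted p = 0.00507). Mrpl55, a protein of the mitochondrial ribosome, lost NM_026035.3, which held 24.1 to 36.7% (median 34.05%) in the others and 0 in VLDLR_KO with a limit of 1.81% (-32.6 ± 2.02 points, adjusted p = 2.05e-06, offset adjusted p = 7.99e-07).

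Ttf1 (chr2:29060199-29087656), the factor that ends transcription by RNA polymerase I, had 82.3, 68.6, 64.8, 70.6 and 76.3% in the noncoding model XR_374068.1 in VLDLR_KO. That model was at 0 in 9 of the others and at 0.961% in WT replicate 4, with gene totals of 316 to 484 counts and a limit of 0.951% (72.6 ± 2.12 points, adjusted p = 1.19e-13, offset adjusted p = 1.27e-05). The coding transcript NM_009442.2 went from 18.8 to 66.3% (median 49.3%) to 2.61, 5.31, 0, 0 and 3.84% (-46.04 ± 5.55 points, adjusted p = 5.05e-05, offset adjusted p = 0.011). The total level of Ttf1 did not pass the test (log2 0.04 ± 0.09, adjusted p = 0.744).

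Shld2, a subunit of the shieldin complex of DNA repair, lost XM_006519647.3, which held 48.4, 51.95, 23.5, 49.8 and 24.5% in WT, 43.03, 44.4, 68.6, 51.8 and 83.1% in ROBO4_KO and 0 in all 5 VLDLR_KO libraries (-50.5 ± 6.96 points, adjusted p = 0.00148, offset adjusted p = 1.01e-05). Its totals were 75 to 170 counts, so a share of up to 4% was allowed by 0 counts and single shares had 95% Wilson intervals of up to 9.47 points to either side. Rbm34, an RNA-binding protein, had 0, 4.82, 0, 0 and 0% in XM_006531182.3 in VLDLR_KO and 34.02 to 53.9% (median 44.5%) in the others (-42.8 ± 3.18 points, adjusted p = 4.12e-07, offset adjusted p = 0.0125). Tceanc2, related to elongation factor TFIIS, had 36.5, 42.4, 44.8, 42.97 and 40.9% in XM_017320351.1 against 0 to 11.6% (median 5.39%) (35.4 ± 2.01 points, adjusted p = 0.0155, offset adjusted p = 0.0626), and without VLDLR_KO replicate 1 its adjusted p was 0.0507. The predicted gene Gm46894 had 0, 1.48, 0.144, 0.638 and 0.483% in XM_017320560.1 against 32.05 to 54.6% (median 49.5%) (-46.6 ± 3.21 points, adjusted p = 1.16e-11, offset adjusted p = 6.82e-08), with a lower total level (log2 -2.49 ± 0.49, adjusted p = 0.002).

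Of the cytoskeleton and endocytosis genes with known alternative exons, 47 of 53 were tested and 2, Flna and Arhgap17, were called, against 1.45% of all tested genes. The median largest difference was 4.22 points in the list and 4.40 points in all tested genes. Flna encodes filamin A, which crosslinks actin, and its transcript XM_006527911.3 was at 0 in all 5 VLDLR_KO libraries and at 0 to 5.05% (median 2.16%) in the others (-2.32 ± 0.842 points, adjusted p = 0.00175, offset adjusted p = 0.106). The groups overlap, since WT replicates 1 and 5 were at 0 too. Arhgap17, a GTPase-activating protein, had 2.68, 32.8, 0, 2.29 and 1.25% in XM_017312292.1 in VLDLR_KO (8.15 ± 4.13 points, adjusted p = 0.0247, offset adjusted p = 0.232). Without VLDLR_KO replicate 2 the difference was 1.48 points (adjusted p = 0.207). The call of Arhgap17 was also lost without WT replicate 2, 3 or 4, ROBO4_KO replicate 2 or VLDLR_KO replicate 4 (adjusted p = 0.0514, 0.0573, 0.0534, 0.0579 and 0.106).

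No gene of the lists on splicing regulators was called by the pooled edgeR test, though other tests called a few. Over all tested genes the pooled test called 1.45%, and 5.26% had an unadjusted p under 0.05. In lists of this size 0 calls are therefore not read as a result about splicing regulators. Of SR proteins and related regulators 22 were tested, with 1 at an unadjusted p under 0.05 and a median largest difference of 2.98 points, and of hnRNPs and other RNA-binding regulators 42 were tested, with 2 at an unadjusted p under 0.05 and a median of 3.46 points. Of 20 genes reported as splicing targets of QKI, 15 were tested with 0 calls and 1 at an unadjusted p under 0.05. The median largest difference of these 15 was 6.78 points, against 4.40 points in all tested genes. The offset test called 159 of all 6407 tested genes (2.48%) and 2 genes in each of the 3 lists. These were Qk and Ptpro among the QKI targets, Srrm2 and Srsf1 among the SR proteins, and Hnrnpu and Khdrbs1 among the hnRNPs and other regulators. By limma, which called 283 of the 6407 genes, the counts were 1, 1 and 2 in the same order. By DESeq2, which called 768 of the 6407, they were 4, 5 and 7. In the list of macrophage receptors the offset test called 3 genes, Trem2, Msr1 and Fcgr3, and in the lists on the cytoskeleton and on lysosomes it called none of the genes named above but Picalm, Snx14 and Ctsl.

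Qk itself had a lower total level in VLDLR_KO (log2 -0.57 ± 0.10, adjusted p = 0.000642) and no called share change in the pooled test (gene-level adjusted p = 1). Its transcript NM_021881.2 held 8.57, 6.63, 8.85, 7.87 and 7.18% in WT, 6.48, 6.91, 8.31, 8.18 and 6.38% in ROBO4_KO and 4.42, 2.66, 5.10, 5.09 and 5.54% in VLDLR_KO. These values do not overlap (-3.04 ± 0.533 points), and the offset test gave an adjusted p of 0.0171. Transcript NM_001159517.1 held 38.8, 33.3, 43.8, 35.8 and 41.5% in VLDLR_KO and 26.8 to 35.5% (median 31.1%) in the others (7.35 ± 1.70 points, offset adjusted p = 0.0472), with overlap, and NM_001159516.1 held 54.98, 63.3, 47.6, 51.8 and 46.2% and 54.3 to 61.1% (median 57.2%) (-4.35 ± 2.18 points, offset adjusted p = 0.59). The call for Qk differed between the tests. Slc17a5, a lysosomal exporter of sialic acid, had 94.6, 90.7, 94.9, 94.9 and 91.1% in its transcript NM_172773.3 in VLDLR_KO and 88.8 to 96.8% (median 94.05%) in the others. The difference was -0.258 ± 1.44 points (gene-level adjusted p = 1), and the total level did not pass the test (log2 -0.15 ± 0.07, adjusted p = 0.151).

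A share change went with a called change of total level in 36 of the 93 genes (38.7%), 13 higher and 23 lower, whereas 1380 of the 6407 tested genes (21.5%) had a called change of level. Apobec1, Msr1, Pigt, Bckdhb, Dhrs3 and Fbxo6 combined a share change with a higher total, and Ifi203, Ifi204, Mndal, Rcan3, Stk3, Tceanc2, Plxnb2 and Gm46894 with a lower one. Apobec3, Ttf1, Cers6, Trem2, Slc35c2, St3gal4, Mrpl55, Rbm34 and Shld2 changed shares without a called change of total level. A share of counts gives more weight to long transcripts than a share of molecules. Shares taken from the authors' FPKM values, which divide by length, moved in the same direction for all 103 called transcripts. Of the 34 called transcripts chosen to be named, 30 did not overlap between the groups on that scale. Most of these were named because their count shares did not overlap, and both scales come from the same libraries. The FPKM shares are therefore a change of scale and not separate support. In St3gal4 XM_006510113.3 the FPKM share was 0.0101 ± 0.0225% (SD, n = 5) in VLDLR_KO and 16.2 ± 4.55% (SD, n = 10) in the others, and in Tceanc2 XM_017320351.1 it was 69.04 ± 4.78% (SD, n = 5) and 10.4 ± 6.53% (SD, n = 10).

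The position of the 93 genes was taken from the authors' table (build GRCm38.p6). The share of tested genes that were called was 2.56% on chromosome 4 (10 of 390), 2.5% on chromosome 6 (7 of 280), 2.39% on chromosome 1 (9 of 377) and 2.22% on chromosome 9 (8 of 361). It was 0.457% on chromosome 5 (2 of 438), 0.619% on chromosome 10 (2 of 323) and 0 on chromosome 18 (0 of 152). No test was run between chromosomes. A called gene had another called gene within 5 Mb in 53 of 93 cases (57%), and 2318 of the 6407 tested genes (36.2%) had a called gene other than themselves that near. On chromosome 1, Ly9, Slamf7, Ifi207, Ifi204, Mndal and Ifi203 start between 171588613 and 173920400. On chromosome 2, Pigt, Ctsa, Slc35c2, Stau1 and Slc9a8 start between 164497510 and 167421661. The listed spans of 56 of the 93 genes overlap another gene, and the same count over all tested genes was not made. Fbxo6 overlaps Fbxo44 on the same strand, and Ctsa, Apobec3, Pik3cd and St3gal4 overlap genes on the other strand. The sources used here do not say whether counting used the strand, so counts of overlapping genes are uncertain.

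**Figure D4:**
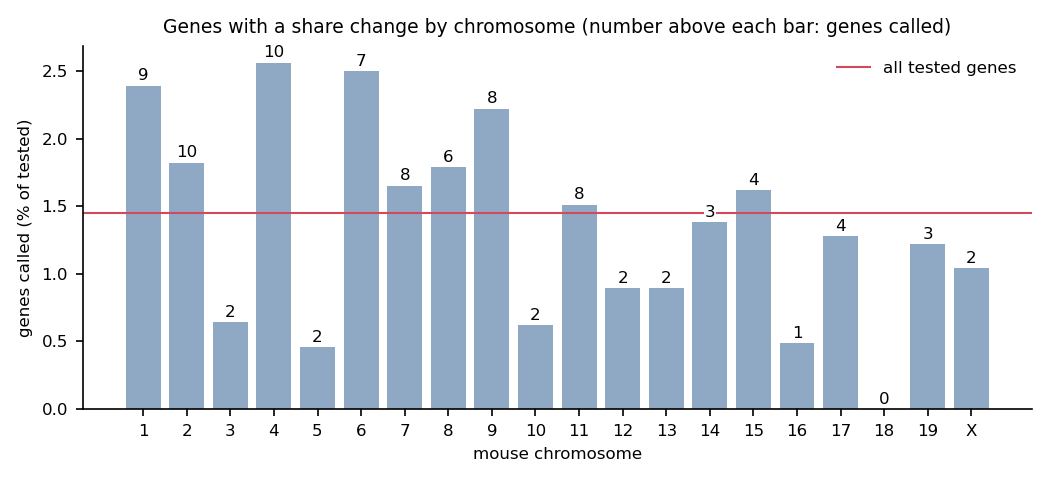
Percentage of tested genes with a called share change on each mouse chromosome (bars from 0, number of called genes above each bar), with the line at 1.45% for all tested genes. Chromosomes 4, 6, 1 and 9 are highest at 2.22 to 2.56%, and chromosome 18 has no called gene.

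The differences were also taken within each form of the sample code. Of the 103 called transcripts, 101 had the same sign within the libraries with the digit before B (2 VLDLR_KO, 5 others) and within those with the digit after B (3 and 5). The transcripts were called on these same libraries, so the shared sign is largely set by that choice. Tested within 1 form, 60 genes were called with the digit before B, 27 of them among the 93, and 68 with the digit after B, 46 of them among the 93, and 16 of the 93 were called in both. An interaction of genotype and code form was called for 6 of the 103 transcripts and for 69 of 24045. Sirpa NM_001291022.1 and Psap NM_001146124.1 were 2 of the 6: the difference in Sirpa was 18.2 points with the digit before B and 0.0592 points with the digit after it (interaction adjusted p = 0.00298), and in Psap 25.9 and -1.49 points (adjusted p = 5.78e-05). VLDLR_KO replicate 2 is 1 of the 2 VLDLR_KO libraries with the digit before B.

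**Figure D5:**
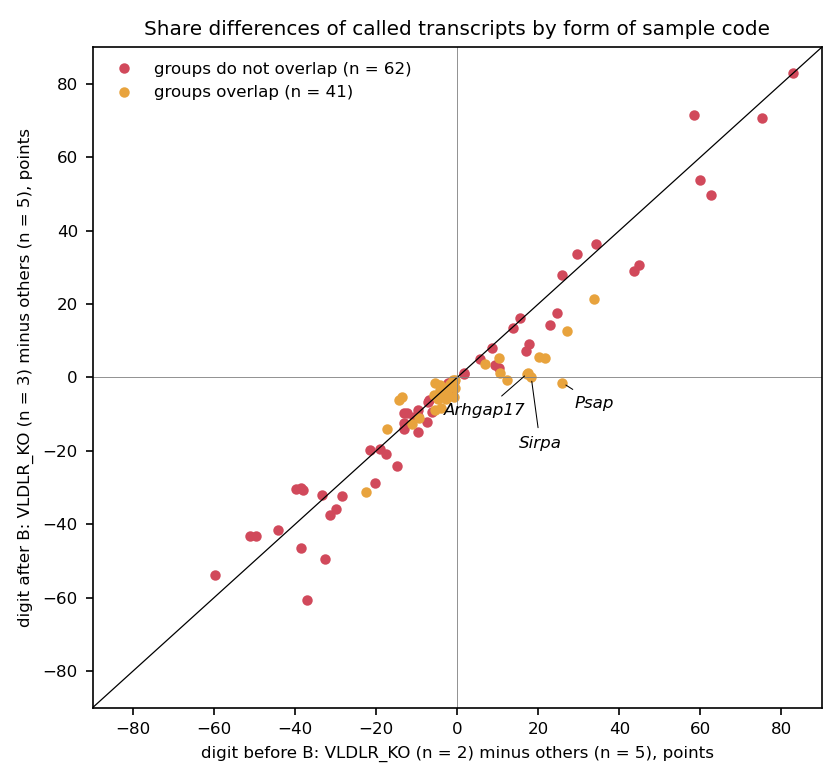
Share difference of each of the 103 called transcripts within the libraries with the digit before B (x axis, points) and within those with the digit after B (y axis, points), with the line of equality. Of the transcripts, 101 have the same sign in both, and Sirpa, Psap and Arhgap17 lie to the right at 17.4 to 25.9 points with the digit before B and between -1.49 and 1.12 points with the digit after it.

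Without VLDLR_KO replicate 2, 91 genes were called, of which 63 were among the 93, with 26 transcripts at a higher and 79 at a lower share. Of the 93, 30 genes lost their call, Sirpa, Psap and Arhgap17 among them, and 28 others gained one. Of the 41 named transcripts that passed the test, 32 passed it with each of the 15 libraries left out in turn. The other 9 were NM_022980.4 and XM_017320317.1 of Rcan3, NM_030255.3 of Apobec3, XM_011242432.2 of St3gal4 and the transcripts given above of Tceanc2, Sec23ip, Sirpa, Arhgap17 and Psap.

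WT and ROBO4_KO, which make up the 10 others, were also compared with each other and with VLDLR_KO separately, in 1 fit with 3 genotypes. VLDLR_KO differed from WT in 71 genes (1.11%) and from ROBO4_KO in 79 genes (1.23%), and these comparisons share the VLDLR_KO libraries. Leaving out ROBO4_KO replicate 2 reduced the latter count to 48. For Apobec1 NM_031159.3, the adjusted p was 9.35e-20 against WT and 2.58e-20 against ROBO4_KO, for Trem2 NM_001272078.1 3.88e-10 and 4.6e-10, and for Slc35c2 XM_006499371.3 1.17e-19 and 3.4e-19. Ttf1 XR_374068.1 (6.53e-07 and 1.92e-08) and Apobec3 NM_001160415.1 (1.76e-12 and 1.49e-14) were among the others that passed against both genotypes. Some of the named transcripts called in the main comparison did not. In the same order the values were 0.132 and 0.0336 for Trim12c NM_175677.4 and 0.596 and 0.0398 for Tceanc2 XM_017320351.1. They were 0.0145 and 0.105 for Txnrd1 NM_015762.2. Neither passed for Sec23ip NM_001029982.2 (0.441 and 0.0973), Rcan3 NM_022980.4 (0.181 and 0.0973) and Apobec3 NM_030255.3 (0.106 and 0.0598). The same held for Rcan3 XM_017320317.1 (0.472 and 0.0818) and St3gal4 XM_011242432.2 (0.17 and 0.0598). It also held for Psap NM_001146124.1 (0.098 and 0.0973) and Arhgap17 XM_017312292.1 (0.355 and 0.495). ROBO4_KO differed from WT in 18 genes (0.281%), with 217 at an unadjusted p under 0.05. The lowest p belonged to Ssbp4 (adjusted p = 3.57e-07), followed by 4833420G17Rik, Chfr, Lat2 and Ints11, and Cers6 was also among the 18 (adjusted p = 0.0437). The count of 18 changed with single libraries: it was 3 without ROBO4_KO replicate 1, 4 without WT replicate 2, 7 without ROBO4_KO replicate 4, 9 without VLDLR_KO replicate 1 or 4, and 10 without ROBO4_KO replicate 3 or VLDLR_KO replicate 3 or 5.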

How the data were processed

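RNA of 15 macrophage cultures was sequenced, 5 libraries for each of 3 genotypes. The authors deposited estimated counts per transcript, which need not be whole (48.3% of values, zeros included, are exactly whole), and a second value per transcript that behaves as FPKM, though the file header gives no unit. HISAT, Bowtie2 and the build GRCm38.p6 are named in the submitters' processing notes without versions, and the quantifier was not given in the sources used here. Estimated counts split reads between similar transcripts by a model, so shares of transcripts that differ little in sequence carry an error that counting intervals do not cover. Library totals were 18132866 to 19005967 counts.

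Counts were rounded to whole numbers, scaled by TMM and tested with edgeR 4.0.16 in R 4.3.3 (quasi-likelihood fit and diffSpliceDGE, code form and VLDLR as terms). Transcripts with at least 10 counts in at least 5 libraries entered, in genes with at least 50 summed counts in every library. Gene-level p-values (Simes) and transcript p-values were adjusted by Benjamini-Hochberg over all tested genes or transcripts. A transcript was called when both adjusted values were under 0.05. Share differences in percentage points and their standard errors are least-squares estimates with code form as a term. Total levels were tested with the same design in edgeR. On simulated counts this test made more false calls than its threshold allows, and a test per transcript with the gene total as an offset was therefore added. Limits for a count of 0 use 3 counts, and Wilson intervals have a level of 95%.

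The named genes were the 24 with the largest called share difference whose groups did not overlap, the 5 of lowest p among the rest, called members of the gene lists (at most 5 per list), and Qk, Slc17a5, Vldlr and Robo4. The genes and lists were chosen with earlier results of these data known. Alternatives used limma 3.58.1 and DESeq2 1.42.0, other filters and scalings, other terms, and fits without single libraries.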

Additional observations from a re-analysis of the deposited data

Results flagged for a closer look

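VLDLR_KO replicate 2 lay far from the other VLDLR_KO libraries in its mean distance from the median shares, 9.405 points, and in the sum of its FPKM values, 676957. The same library was far from its group in the shares of Rbm34 XM_006531182.3 (4.822%), Dhrs3 NM_001172424.1 (62.55%), Sec23ip NM_001029982.2 (79.59%), Slc35b4 XM_011241421.2 (7.477%), Sirpa NM_001291022.1 (36.64%), Arhgap17 XM_017312292.1 (32.84%) and Psap NM_001146124.1 (50.57%). Among the other libraries, a share stood apart in its group for Apobec3 NM_001160415.1 in WT replicate 3 (1.093%), Arhgap17 XM_017312292.1 in WT replicate 5 (1.918%), St3gal4 XM_006510113.3 in ROBO4_KO replicate 2 (39.91%), Stk3 XM_006520121.3 in ROBO4_KO replicate 1 (4.544%), Msr1 NM_001113326.1 in ROBO4_KO replicate 1 (7.739%) and Qk XR_385170.2 in ROBO4_KO replicate 2 (0%). Of 114 groups of 5 libraries examined with Dixon's criterion, 15 had such a sample (13.2%), 9 of them VLDLR_KO replicate 2. The nominal rate of 5% is no fair measure here, since many shares are 0 and the groups reuse the same 15 libraries.

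The VLDLR_KO difference itself differed between the code forms for Sirpa NM_001291022.1, by 6.038 on the log2 scale (digit before B minus digit after B), and for Psap NM_001146124.1, by 2.902, both by the interaction term in edgeR.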

How the results depend on the processing

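The number of genes with a share change between VLDLR_KO and the 10 others, 93, was 59 with transcripts of at least 5% mean share, 30 with curated transcripts alone, 283 with limma's diffSplice, 768 with DESeq2, 201 and 214 with limma on log ratios at pseudocounts of 0.5 and 5, 159 with the gene total as offset, which was chosen after seeing the data, 60 within the libraries with the digit before B and 210 with a gene-level F test. Of the 93, 46, 25, 59, 85, 66, 63, 55, 27 and 86 were among these calls. It stayed within 1.5 times under the other 8 settings, and was 71 to 92 with 1 library left out. Numbers at the end of the sample codes are shared between genotypes, but only 2 of 12 pairs with the same number correlated above 0.1 (-0.02 to 0.16), so they were not taken as pairs. With the number as a replicate block 59 genes were called, 54 of them among the 93.

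VLDLR_KO against WT gave 71 genes, 39 with the 5% share filter, 22 with curated transcripts, 202 with limma and 55 to 81 with 1 library left out. VLDLR_KO against ROBO4_KO gave 79, and 24, 186 and 48 to 88 with curated transcripts, limma and 1 library left out. ROBO4_KO against WT gave 18, and 7, 3, 9 and 3 to 27 with the 5% share filter, curated transcripts, WT replicates 1 and 2 both left out, and 1 library left out. Of the 78 named transcripts, 41 were called in the main fit. Over all 78, 2188 of 2433 alternative values kept their status as called or not called, 130 lost the call and 114 gained one. A change of direction between uncalled values was counted as kept, so the 2188 do not measure how stable the directions were. Where the main or the alternative fit gave a call, 1 value changed direction, that of Psap NM_001146124.1 within the digit after B (log2 -0.21, adjusted p = 1). The cause of these differences was not tested. In genes with about 100 counts, such as Shld2 and Bckdhb, depth limits the shares.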
